A study of Mus musculus with 24 samples.

Results

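MHC class I heavy chain genes were followed in 4 mouse tumour cell lines that carried a guide RNA against the gene of their common light chain or a control guide. The 10 genes were taken by symbol: H2-K1, H2-D1, H2-T23, H2-T22, H2-T10, H2-T24, H2-M3, H2-Q4, H2-Q1 and H2-Q7. H2-K1 and H2-D1 are the 2 classical genes and the other 8 are non-classical. All 10 were listed in the expression table of each line, among 28774 (MC38), 27398 (LLC1), 28237 (AKR) and 26146 (Hepa1-6) genes. Genes were tested where the deposited log2 value reached 3.5 in at least 3 of a line's 6 libraries. This left 10 of the 10 heavy chains for MC38, 9 each for LLC1 and AKR, and 8 for Hepa1-6. H2-Q7 passed in MC38 only, and H2-K1 did not pass in Hepa1-6.

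The labels give colon adenocarcinoma for MC38, Lewis lung carcinoma for LLC1, esophageal carcinoma for AKR and hepatocellular carcinoma for Hepa1-6. Each line carried either sgB2m, a single guide RNA against B2m, or sgNT, a non-targeting guide, with 3 libraries per line and guide and 24 libraries in all. All groups grew in culture in DMEM with serum, and the labels name no drug, cytokine or other cell. The labels do not say if a clone or a pool of edited cells was used, nor whether replicates were separate cultures, so p-values measure only the spread between libraries, which may be technical.

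An MHC class I molecule is a heavy chain paired with beta-2-microglobulin, the product of B2m, and a short peptide. The chains meet in the endoplasmic reticulum, where the TAP transporter and the tapasin loading complex supply the peptide, and heavy chains that lack the light chain mostly stay inside the cell. Classical heavy chains show peptides to CD8 T cells. Non-classical ones are less variable and serve narrower tasks: H2-T23 encodes Qa-1, the ligand of CD94/NKG2 receptors on natural killer cells, H2-M3 presents N-formylated peptides, and T22 and T10 are ligands of some gamma-delta T cell receptors. NLRC5 is the transactivator of class I genes. Interferon regulatory factors and NF-kB also act at their promoters.

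All 10 genes lie on mouse chromosome 17 in the H2 complex (GENCODE M21 on GRCm38, the mm10 build). H2-K1 lies at chr17:33996017-34000347 on the minus strand, apart from the others, and H2-D1 at chr17:35262730-35267499 on the plus strand. H2-Q1 (chr17:35320405-35325099), H2-Q4 (chr17:35379617-35385290) and H2-Q7 (chr17:35439155-35443773) follow on the plus strand. H2-T24 (chr17:36005695-36020560), H2-T23 (chr17:36029773-36032855), H2-T22 (chr17:36037128-36042747) and H2-T10 (chr17:36115876-36121465) follow on the minus strand. H2-M3 (chr17:37270220-37274484, plus strand) is the most distal of the 10. The annotation calls 9 of them protein coding and H2-T10 a polymorphic pseudogene.

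Promoter sequences were matched in RefSeq (GRCm38.p6) for 7 of the 10 genes, each from 250 bases before the transcript start to 50 after. Shown here are both classical promoters, which carry the same NF-kB type motif, and those of H2-T23 and H2-T22, non-classical neighbours whose transcripts moved in opposite directions in MC38 and LLC1. Capitals mark the motifs searched on both strands, which do not overlap in these 4 sequences: GGGATTCCC (kB site), GAAANNGAA (core of an interferon response element), TGACGC (cyclic AMP response element-like) and CCAAT or its reverse complement ATTGG.
H2-K1 (chr17:34000298-34000597, minus strand): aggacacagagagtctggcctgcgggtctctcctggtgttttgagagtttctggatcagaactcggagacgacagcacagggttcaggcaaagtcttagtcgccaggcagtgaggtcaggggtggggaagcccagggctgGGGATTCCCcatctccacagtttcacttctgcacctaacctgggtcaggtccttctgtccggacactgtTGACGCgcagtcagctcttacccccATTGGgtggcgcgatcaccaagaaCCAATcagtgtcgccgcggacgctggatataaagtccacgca
H2-D1 (chr17:35262844-35263143, plus strand): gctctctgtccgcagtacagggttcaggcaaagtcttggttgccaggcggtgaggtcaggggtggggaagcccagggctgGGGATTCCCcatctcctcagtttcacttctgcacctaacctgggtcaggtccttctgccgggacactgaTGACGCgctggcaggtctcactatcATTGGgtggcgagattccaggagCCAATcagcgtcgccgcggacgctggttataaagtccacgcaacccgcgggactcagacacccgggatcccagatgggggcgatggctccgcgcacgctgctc
H2-T23 (chr17:36032652-36032951, minus strand): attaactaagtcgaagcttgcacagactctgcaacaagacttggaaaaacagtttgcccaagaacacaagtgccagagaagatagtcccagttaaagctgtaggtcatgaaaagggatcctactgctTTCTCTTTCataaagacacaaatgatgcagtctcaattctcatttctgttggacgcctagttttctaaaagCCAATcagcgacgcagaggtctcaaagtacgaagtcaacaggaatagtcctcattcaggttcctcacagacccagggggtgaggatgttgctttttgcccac
H2-T22 (chr17:36042693-36042992, minus strand): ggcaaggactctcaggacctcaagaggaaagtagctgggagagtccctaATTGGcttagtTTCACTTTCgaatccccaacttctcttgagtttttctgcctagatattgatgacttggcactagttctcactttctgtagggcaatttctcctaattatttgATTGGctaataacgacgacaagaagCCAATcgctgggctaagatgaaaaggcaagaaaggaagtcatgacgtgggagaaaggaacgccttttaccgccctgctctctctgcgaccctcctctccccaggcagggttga

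The exact letters GGGATTCCC were in the promoters of H2-K1, H2-D1 and H2-Q7 and not in those of H2-T23, H2-T22, H2-M3 and H2-Q4. They were in 100 of all 27025 promoters of the same length (0.37%). The H2-Q4 promoter holds gggatttccc, a near variant that was not searched. GAAANNGAA or its complement TTCNNTTTC was in the promoters of H2-T23 and H2-T22 and in 8.57% of all. The letters tttcacttc, a near variant that was not searched, are in those of H2-K1, H2-D1, H2-M3, H2-Q4 and H2-Q7. The search therefore does not show that these promoters lack an interferon response element. TGACGC or its complement was in those of H2-K1, H2-D1, H2-M3 and H2-Q4 and in 7.5% of all. The letters tgacgt, also not searched, are in the promoters of H2-T22, H2-Q4 and H2-Q7. A CCAAT box in either orientation was in all 7, and in 37.9% of all promoters. A match describes letters in this window and says nothing on binding.

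The targeted transcript itself was lower in every sgB2m library of each line. B2m stood at 269, 263 and 252 RPM (reads of the gene per 1 M counted reads) in the MC38 sgB2m libraries against 866, 928 and 936 in sgNT. It stood at 184, 191 and 186 against 609, 593 and 599 in LLC1. In AKR it was at 154, 135 and 137 against 400, 417 and 405, and in Hepa1-6 at 92.7, 95.6 and 86.8 against 235, 231 and 227. The groups did not overlap in any line, in the direction the guide labels give. On the log2 scale B2m fell by 1.78 ± 0.042 (MC38), 1.71 ± 0.029 (LLC1), 1.57 ± 0.054 (AKR) and 1.35 ± 0.04 (Hepa1-6), each ± SE, with limma adjusted p-values of at most 2.25e-08. In these bulk libraries a smaller share of cells with the transcript and less transcript per cell cannot be told apart.

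Libraries held 25.02 to 49.72 M counted reads. No pair of replicates agreed within sampling noise. Of the labelled tissues, Hepa1-6 sgNT expressed all 5 hepatocyte markers (Alb, Afp, Apoa1, Ttr and Trf) with group means of 6 or more on the log2 scale. Of these, Apoa1 was lower in Hepa1-6 sgB2m, at 3.65 against 6.174 (adjusted p = 0.000381), as was Ttr, at 8.445 against 10.08 (5.47e-10), and their part in the results was not tested. Of 5 markers each, MC38 had 1 intestinal (Lgals4), LLC1 had 2 alveolar (Abca3 and Napsa) and AKR had 2 squamous (Krt13 and Sox2) at a mean of at least 6 in a group. Cdh17, Cdx2 and Krt20 in MC38, Sftpc, Sftpb and Nkx2-1 in LLC1, and Krt5 and Krt14 in AKR were absent or under 10 reads. Markers of other tissues reached 6 too: 2 squamous in MC38 (top Krt14, 10.94), 3 intestinal in AKR (top Krt20, 9.049) and 4 intestinal in Hepa1-6 (top Cdh17, 14.7). LLC1 had 1 intestinal (Cdx2) and AKR 1 hepatocyte marker (Afp, 7.85). Abca3 reached 9.894 in MC38, 10.95 in AKR and 11.75 in Hepa1-6. These markers thus did not set the labelled tissue apart in MC38 and AKR. For LLC1, Abca3 at 10.39 was no higher than in AKR and Hepa1-6, which left Napsa (8.106) alone. Markers also differed between guides outside Hepa1-6. With sgB2m in AKR, Krt13 rose by 1.20 ± 0.095 (limma adjusted p = 4.05e-06) and Krt20 by 1.59 ± 0.13 (6.28e-06). Sox2 fell by 0.97 ± 0.1 there (3.23e-05), and Napsa fell by 0.82 ± 0.12 in LLC1 (7.5e-05). Their part in the results was not tested. The leukocyte markers, genes of cells that express class I strongly, were low: their 8 summed to 0.283 to 1.15 RPM in MC38 and AKR, 4.09 to 6.19 in LLC1 and 5.95 to 11.2 in Hepa1-6. In AKR the sum was higher in sgB2m (0.554 to 1.15) than in sgNT (0.283 to 0.425), the direction of the heavy chains called there. The part of this AKR difference in the results was not tested. Cd3e, Itgam, Adgre1 and Nkg7 were absent or under 10 reads in each line. The leukocyte sum in Hepa1-6 was 5.95 to 7.87 in sgB2m and 9.83 to 11.2 in sgNT. Csf1r carried most of it, with 411 reads over the sgB2m and 844 over the sgNT libraries. Lyz2 had 106 and 112, Ptprc 8 and 2, and Cd79a 7 and 0, so the lower sum was that of Csf1r. The sum was lower in sgB2m as H2-Q1 was there and opposite to H2-D1 and H2-Q4, and its part in the results was not tested.

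Over the 36 tests of a heavy chain in a line, 15 called the transcript higher in sgB2m, 4 called it lower and 17 made no call, at an adjusted p under 0.05 over all genes tested in the line. The log2 fold changes (sgB2m minus sgNT) ran from -1.39 to 0.74, and 1 called change reached 2-fold. H2-D1 was the 1 gene called in each of the 4 lines. H2-T24 was called in none of 4. The lines differed in which genes moved and in which direction, and each is described in turn.

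**Figure D1:**
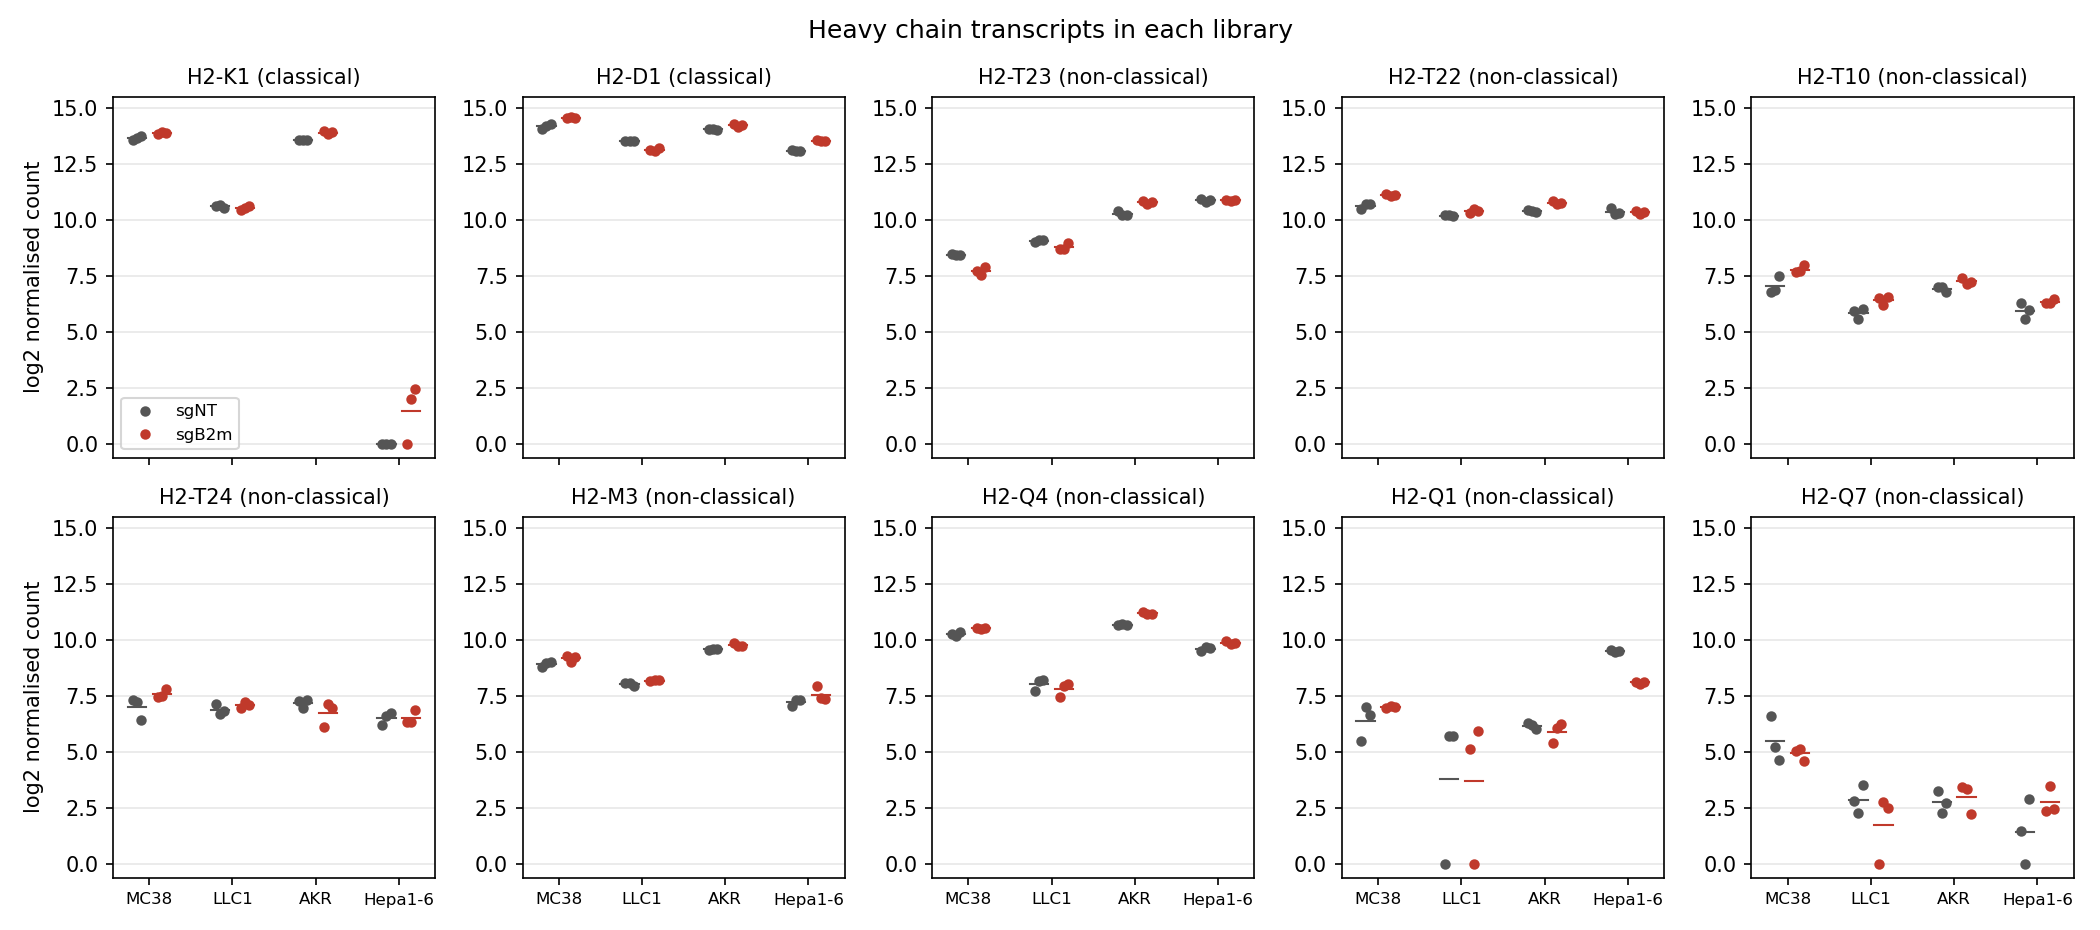
Log2 normalised count of each of the 10 heavy chain genes (vertical axis) in every library, by line (horizontal axis) and guide; points are libraries (3 per group) and bars are group means. H2-K1 is near 0 in Hepa1-6 while H2-D1 is above 13 in every library of the 4 lines, and H2-Q1 has a library at 0 in each LLC1 group.

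In MC38, 5 heavy chains rose and H2-T23 fell. The risers were both classical genes and the non-classical H2-T22, H2-T10 and H2-Q4. That is 6 called of 10 tested, against 31.8% of all 16532 genes tested in MC38, 15.9% called higher and 15.8% lower. The groups did not overlap for 7 of the 10, against 45% of all genes.

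H2-D1 stood at 14.52, 14.59 and 14.54 log2 normalised counts in the sgB2m libraries of MC38 and at 14.06, 14.2 and 14.28 in sgNT. Every sgB2m library was above every sgNT library. The log2 fold change was 0.37 ± 0.054 (SE, n = 3 and 3; adjusted p = 0.000688), a 1.29-fold higher level. H2-K1, the other classical gene, stood at 13.82, 13.92 and 13.86 against 13.56, 13.65 and 13.72. Its groups were also apart, by 0.23 ± 0.05 (adjusted p = 0.00655).

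H2-T23, which encodes Qa-1, went the other way in MC38: 7.73, 7.54 and 7.89 in sgB2m against 8.5, 8.42 and 8.45 in sgNT, on the log2 scale. All sgB2m libraries were below all sgNT libraries, and it fell by 0.74 ± 0.13 (adjusted p = 0.00201). H2-T22, its neighbour, stood at 11.15, 11.06 and 11.13 against 10.47, 10.73 and 10.69 and rose by 0.49 ± 0.076 (adjusted p = 0.000983). H2-T10, which resembles H2-T22 in sequence, stood at 7.67, 7.72 and 7.97 against 6.8, 6.87 and 7.48 and rose by 0.74 ± 0.2 (adjusted p = 0.0197). The third sgNT library of H2-T10 lay close to the sgB2m group. H2-Q4 stood at 10.55, 10.51 and 10.54 against 10.28, 10.16 and 10.36 and rose by 0.27 ± 0.07 (adjusted p = 0.0161).

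H2-T24, H2-M3, H2-Q1 and H2-Q7 were not called in MC38, with log2 fold changes of 0.59 ± 0.24, 0.24 ± 0.11, 0.63 ± 0.34 and -0.54 ± 0.47. H2-Q7 encodes a Qa-2 chain. Its sgNT libraries held 99, 29 and 34 reads and its sgB2m libraries 30, 32 and 25. H2-Q6, which shares sequence with H2-Q7, had 127 reads over sgNT and 29 over sgB2m in MC38 and was not called. The call for H2-T10 was lost without sgB2m replicate 3 or sgNT replicate 2 (adjusted p = 0.0771 and 0.0693; 0.00366 to 0.0771 over its 14 alternatives) and that for H2-Q4 without sgB2m replicate 1 or 3 or sgNT replicate 2 (0.0562, 0.0535 and 0.0645; 0.00878 to 0.0645 over 14), while H2-T24 was called higher without sgNT replicate 1 (0.0325; 0.0325 to 0.248 over 14). Without an intensity trend in the test H2-K1 (0.0654; 0.00235 to 0.0654 over 14) and H2-T10 (0.0604) were not called.

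In LLC1 the pattern was split: H2-D1 and H2-T23 fell, H2-T22 and H2-T10 rose, and H2-K1 was not called. These 4 calls among 9 tested stand against 42.4% of the 15323 genes tested in LLC1, with 20.7% called higher and 21.8% lower. The groups did not overlap for 5 of 9, against 51.8% of all genes. The heavy chains' share of calls was thus near that of all genes in this line.

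H2-D1 in LLC1 stood at 13.1, 13.09 and 13.19 in sgB2m and at 13.51, 13.51 and 13.53 in sgNT on the log2 scale. It fell by 0.39 ± 0.032 (adjusted p = 2.69e-07), with every sgB2m library below every sgNT library. H2-K1 stood at 10.458, 10.529 and 10.603 against 10.644, 10.648 and 10.520, and its groups overlapped. The log2 fold change of H2-K1 was -0.07 ± 0.057 (adjusted p = 0.327).

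H2-T23 in LLC1 stood at 8.69, 8.71 and 8.95 against 9.03, 9.11 and 9.11 and fell by 0.30 ± 0.091 (adjusted p = 0.0143). H2-T22 stood at 10.305, 10.483 and 10.422 against 10.203, 10.198 and 10.176 and rose by 0.21 ± 0.059 (adjusted p = 0.00962). H2-T10 stood at 6.54, 6.19 and 6.58 against 5.93, 5.6 and 6.02 and rose by 0.59 ± 0.22 (adjusted p = 0.0408). For all 3 the groups did not overlap. H2-M3, H2-T24 and H2-Q4 had log2 fold changes of 0.15 ± 0.1, 0.21 ± 0.17 and -0.23 ± 0.17 and were not called.

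H2-Q1 in LLC1 varied within each group far beyond its change: its libraries held 35, 0 and 64 reads in sgB2m and 0, 52 and 50 in sgNT. The log2 fold change of H2-Q1 was -0.11 ± 1.5, which leaves any change of about the size seen in other lines undetectable. The call for H2-T23 was lost without sgB2m replicate 1 or 2 (adjusted p = 0.055 and 0.0558; 0.00326 to 0.0558 over 14 alternatives), that for H2-T22 without sgB2m replicate 2 (0.0507; 0.00348 to 0.0507 over 14), and that for H2-T10 without sgB2m replicate 1 or 3 or sgNT replicate 1 or 2 (0.115, 0.117, 0.0616 and 0.139) and with no filter on low values (0.0813; 0.0328 to 0.139 over 14).

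In AKR 6 of 9 heavy chains rose and 0 fell, as many calls as in MC38. The 6 were H2-K1, H2-D1, H2-T23, H2-T22, H2-M3 and H2-Q4, classical and non-classical alike. Of the 15882 genes tested in AKR 42.9% were called, 21% higher and 21.9% lower. For 7 of the 9 the groups did not overlap, against 52.5% of all genes. In the limma test no heavy chain was lower at an unadjusted p under 0.05 either (0 of 9), and limma voom on recovered reads called 0 lower.

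H2-K1 in AKR stood at 13.95, 13.81 and 13.9 in sgB2m and at 13.56, 13.55 and 13.56 in sgNT and rose by 0.33 ± 0.041 (adjusted p = 9.11e-05). H2-D1 stood at 14.29, 14.16 and 14.21 against 14.05, 14.07 and 14.02 and rose by 0.17 ± 0.04 (adjusted p = 0.00517). The sgNT libraries of both classical genes lay within a narrow band below all sgB2m libraries. H2-T23 stood at 10.86, 10.71 and 10.8 against 10.38, 10.22 and 10.24 and rose by 0.51 ± 0.065 (adjusted p = 0.000107).

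H2-T22 in AKR stood at 10.84, 10.7 and 10.77 against 10.45, 10.38 and 10.37 and rose by 0.37 ± 0.056 (adjusted p = 0.00035). H2-Q4 stood at 11.23, 11.17 and 11.18 against 10.66, 10.71 and 10.69 and rose by 0.51 ± 0.048 (adjusted p = 1.46e-05). H2-M3, which presents N-formylated peptides, stood at 9.88, 9.72 and 9.75 against 9.57, 9.59 and 9.59 and rose by 0.20 ± 0.067 (adjusted p = 0.0325). Each of the 3 had groups that did not overlap. H2-T10, H2-T24 and H2-Q1 had log2 fold changes of 0.33 ± 0.15, -0.45 ± 0.24 and -0.28 ± 0.24 and were not called.

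The call for H2-M3 in AKR was lost without sgB2m replicate 1 or 3 or any 1 of sgNT replicates 1, 2 and 3 (adjusted p = 0.103, 0.0626, 0.0872, 0.0734 and 0.069; 0.0277 to 0.103 over 14 alternatives), and also when each library was centred on its median (0.0665). That for H2-D1 was lost without an intensity trend (0.0536; 7.18e-05 to 0.0536 over 14).

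In Hepa1-6, H2-D1 and H2-Q4 rose, H2-Q1 fell, and H2-K1 was almost without reads in either group. The 3 calls among 8 tested stand against 37.8% of 14910 genes, 18.6% higher and 19.2% lower. The groups did not overlap for 4 of 8, against 47.6%. This share too was near that of all genes.

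H2-Q1 in Hepa1-6 stood at 8.15, 8.06 and 8.14 in sgB2m and at 9.55, 9.46 and 9.52 in sgNT, with the groups far apart relative to their spread. It fell by 1.39 ± 0.092 (adjusted p = 1.09e-08), the 1 called change of at least 2-fold among the heavy chains in the 4 lines. In RPM it was 9.86 ± 0.29 against 25.6 ± 0.79 (SD, n = 3 each). Of 100-base windows of the H2-Q1 transcript, 13.1% are shared with another gene, most often H2-Q2. In Hepa1-6 H2-Q2 had 14 reads over the sgB2m and 124 over the sgNT libraries. Its groups overlapped, and it did not pass the filter for a test.

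H2-D1 in Hepa1-6 stood at 13.54, 13.5 and 13.53 against 13.1, 13.09 and 13.05 and rose by 0.44 ± 0.027 (adjusted p = 3.76e-09). H2-Q4 stood at 9.95, 9.81 and 9.86 against 9.51, 9.69 and 9.63 and rose by 0.26 ± 0.075 (adjusted p = 0.0122). Neither gene's groups overlapped. H2-T23 stood at 10.89, 10.84 and 10.91 against 10.94, 10.81 and 10.88, a log2 fold change of 0.01 ± 0.052, with groups that overlapped. H2-T22, H2-T10, H2-T24 and H2-M3 had log2 fold changes of -0.03 ± 0.071, 0.39 ± 0.24, 0.00 ± 0.23 and 0.33 ± 0.18 and were not called. The call for H2-Q4 was lost without sgB2m replicate 1 or sgNT replicate 1 (adjusted p = 0.0567 and 0.0613; 0.00962 to 0.0613 over 14 alternatives).

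**Figure D2:**
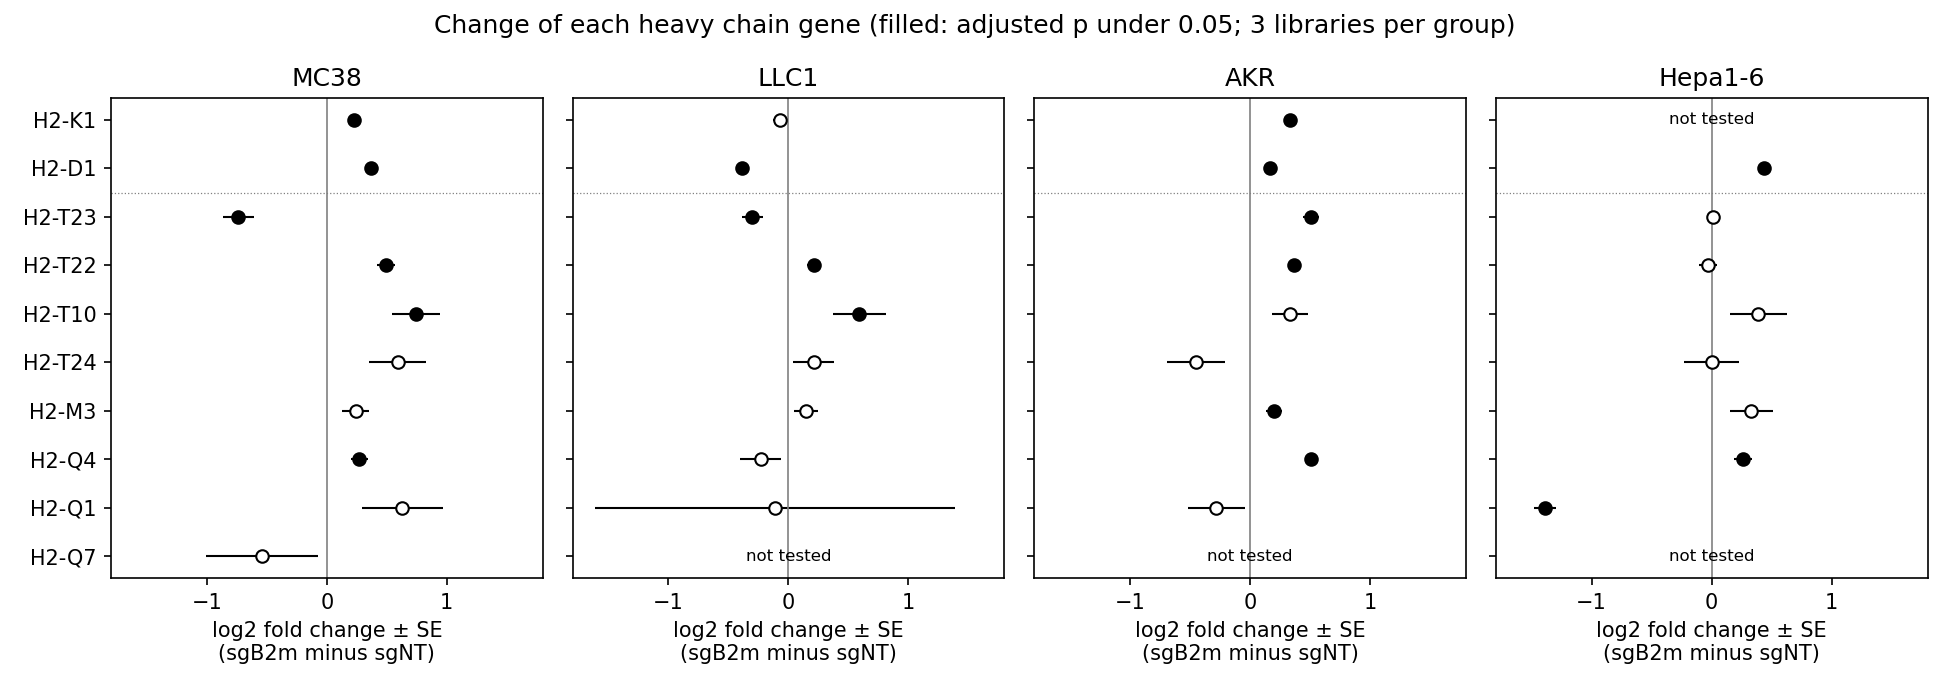
Log2 fold change (sgB2m minus sgNT, horizontal axis) ± SE of each heavy chain gene (vertical axis) in the 4 lines, 3 libraries per group; filled points have an adjusted p under 0.05, and the dotted line parts the classical genes above from the non-classical below. H2-D1 is left of 0 in LLC1 and right of it in the other lines, while H2-T23 is left of 0 in MC38 and LLC1 and right of it in AKR.

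The differences between lines were tested directly, in a fit of all 24 libraries over the 12674 genes tested in every line. The guide effect differed between lines for 4 of the 8 heavy chains in that fit, H2-D1, H2-T23, H2-T22 and H2-Q4, against 69.8% of all genes. Their adjusted p-values in limma's F test were 8.65e-11, 2.74e-08, 0.00045 and 0.00309. H2-T10 (0.511), H2-T24 (0.0733), H2-M3 (0.773) and H2-Q1 (0.704) were not called. In a fit without Hepa1-6, chosen after these values were seen, H2-T24 was also called (0.0448, from 0.0448 to 0.379 over 11 alternatives).

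The 6 pairs of lines were then compared gene by gene, with p-values adjusted over all genes for each pair. H2-T23 differed in 6 of 6 pairs. Its effect in MC38 was below that in AKR by -1.25 (95% interval -1.49 to -1.01, adjusted p = 7.06e-09), the widest of the called differences of heavy chains in this 4-line fit. H2-D1 differed in 5 of 6. Its effect in LLC1 was below that in MC38, AKR and Hepa1-6, and the LLC1 minus Hepa1-6 difference was -0.83 (-0.95 to -0.71, adjusted p = 6.29e-11). The MC38 and Hepa1-6 effects on H2-D1 were not told apart, with a difference of -0.08 (-0.20 to 0.05).

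H2-T22 differed in 3 of 6 pairs, among them MC38 minus Hepa1-6 at 0.51 (0.31 to 0.71, adjusted p = 0.000218). H2-Q4 differed in 3 of 6, each of them a pair with LLC1, and LLC1 minus AKR was -0.74 (-1.08 to -0.40, adjusted p = 0.000943). Without the LLC1 libraries, a setting chosen after these values were seen, the H2-Q4 effects in MC38 and AKR also differed, by -0.24 (-0.42 to -0.06, adjusted p = 0.0273), as did those in AKR and Hepa1-6, by 0.24 (0.06 to 0.42, adjusted p = 0.0289). H2-T24 differed in 1 pair, MC38 minus AKR at 1.04 (0.30 to 1.78, adjusted p = 0.0192). Of all genes, 40.2% differed between MC38 and LLC1, 47.6% between MC38 and AKR, 37.7% between MC38 and Hepa1-6, 39.5% between LLC1 and AKR, 45.2% between LLC1 and Hepa1-6 and 41.8% between AKR and Hepa1-6.

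The other 3 genes in that fit gave no pair. For H2-M3 the differences reached at most 0.18 in size, with an interval of -0.54 to 0.17 for LLC1 minus Hepa1-6. For H2-T10 they reached 0.41, with an interval of -0.18 to 0.99 for MC38 minus AKR. H2-Q1 had an SE of 1.6 on each difference because the LLC1 libraries at 0 reads enter the shared spread; without that line it was 0.39. In the fit without LLC1 its effect differed between the other 3 lines (adjusted p = 0.000783; 0.000783 to 0.89 over 10 alternatives), against 58.9% of 13053 genes. There the effect on H2-Q1 in MC38 exceeded that in Hepa1-6 by 2.02 (1.21 to 2.83, adjusted p = 0.000447), and that in AKR exceeded it by 1.11 (0.30 to 1.93, adjusted p = 0.0278). Of all genes in that fit, 36.1% differed between MC38 and Hepa1-6, 40.1% between AKR and Hepa1-6 and 46.1% between MC38 and AKR.

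H2-K1 could be compared over MC38, LLC1 and AKR alone, in the fit without Hepa1-6. Its effect differed between the 3 lines (adjusted p = 0.000204, against 60.3% of 13838 genes called). The effect on H2-K1 in LLC1 was below that in MC38, with MC38 minus LLC1 at 0.30 (0.15 to 0.45, adjusted p = 0.00221), and below that in AKR, with LLC1 minus AKR at -0.40 (-0.55 to -0.26, adjusted p = 0.000156). MC38 minus AKR was -0.10 (-0.25 to 0.04, adjusted p = 0.243). Of all genes in that fit, 39.3% differed between MC38 and LLC1, 39.2% between LLC1 and AKR and 47% between MC38 and AKR. In LLC1, H2-K1 and H2-D1 therefore both had effects below those in MC38 and AKR by this test.

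Levels across lines are given in RPM, as a description, since each line's table was normalised on its own. H2-K1 stood at 383 ± 3.1 in AKR sgNT, 359 ± 21 in MC38 sgNT and 56.4 ± 2.6 in LLC1 sgNT (SD, n = 3). AKR (381 to 387) and MC38 (336 to 379) lay close without overlap, and LLC1 lay well below both. In Hepa1-6 the 3 sgNT libraries held 0 H2-K1 reads among 92.6 M counted reads, and the sgB2m libraries held 0, 3 and 4. A count of 0 allows up to 3 reads over the group, or 0.0324 RPM, so that H2-K1 was at least 1740-fold higher in LLC1 sgNT. This bound covers counting error only. It holds for reads counted to the H2-K1 gene of the mm10 reference, and how reads of a copy that is missing or differs from it would be counted was not tested.

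Genes on either side of H2-K1 were read in Hepa1-6. Over its 6 libraries Ring1, which encodes a Polycomb protein and is the next protein coding gene on one side, had 2779 reads, and H2-K2, an annotated pseudogene on the other, had 466. Vps52 had 4002 reads and Rps18, a ribosomal protein gene, 121449. B3galt4, beyond Rps18, held 17 reads in Hepa1-6, 74 in LLC1, 546 in AKR and 649 in MC38. The read counts for H2-K1 itself were 7 in Hepa1-6, 9136 in LLC1, 82087 in AKR and 84848 in MC38. These neighbours were chosen for display after their values were seen.

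**Figure D3:**
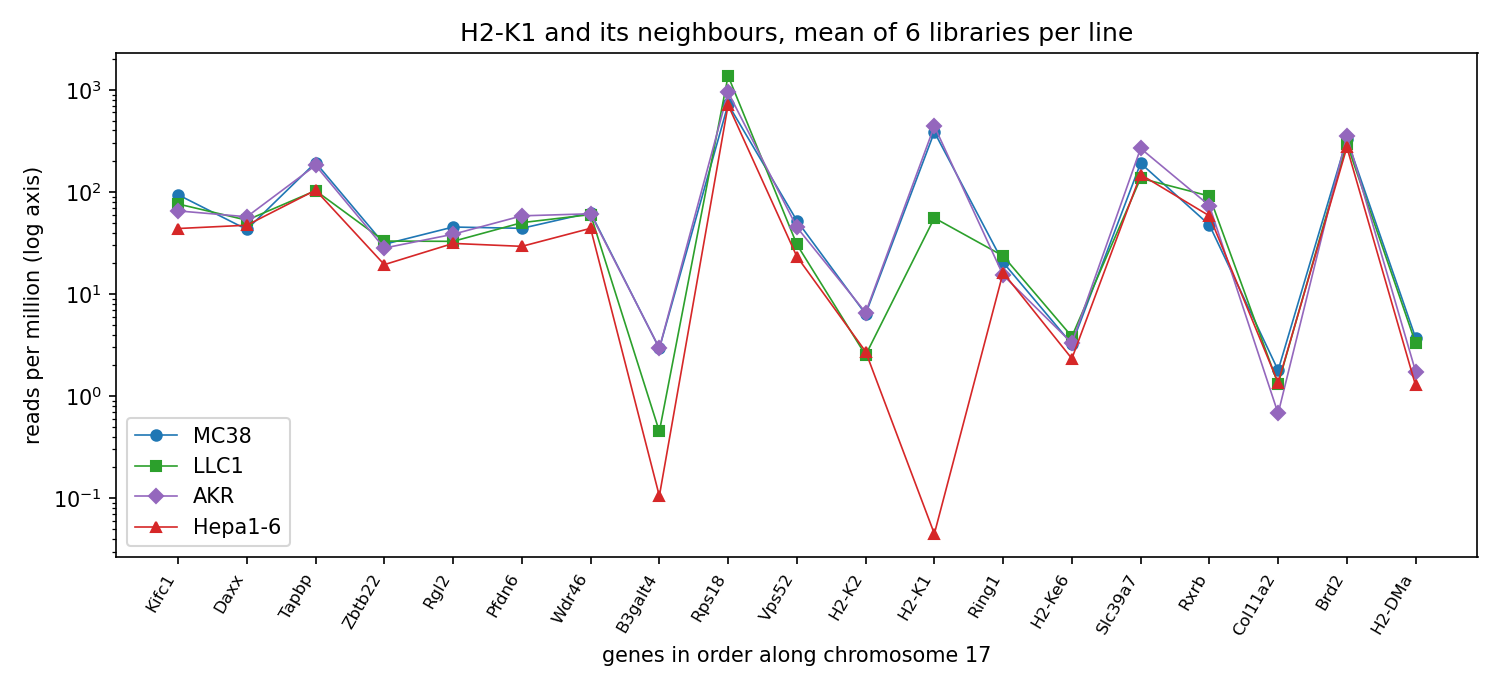
Mean RPM over the 6 libraries of each line (vertical, log axis) for H2-K1 and the protein coding genes and H2-K2 around it that all 4 tables list, in order along the chromosome (horizontal). H2-K1 in Hepa1-6 is at 0.0448 against 55.6 to 441 in the other lines, while Ring1 lies between 15.3 and 23.6 in all 4.

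H2-D1 varied less between lines than H2-K1 did: 539 ± 11 RPM in AKR sgNT, 522 ± 41 in MC38, 425 ± 5.2 in LLC1 and 304 ± 6.7 in Hepa1-6. AKR and MC38 overlapped in range, and LLC1 and Hepa1-6 were each below. H2-T23 had another order, with 66 ± 3 in Hepa1-6, 39.6 ± 2.8 in AKR, 19.7 ± 0.62 in LLC1 and 9.84 ± 0.21 in MC38 sgNT, and no neighbours in that order overlapped. H2-T22 was nearly level, between 42.4 and 46.6 in the sgNT groups of the 4 lines. H2-Q4 ranged from 9.67 ± 1.8 in LLC1 through 27.4 ± 1.8 in Hepa1-6 and 34.6 ± 2.3 in MC38 to 52.4 ± 0.7 in AKR. H2-M3 ranged from 5.28 ± 0.46 in Hepa1-6 to 24.3 ± 0.037 in AKR.

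Among the weaker genes, H2-Q1 was at 25.6 ± 0.79 RPM in Hepa1-6 sgNT and between 1.25 and 2.58 in the sgNT groups of the other lines. H2-T10 lay between 2.07 and 3.88 and H2-T24 between 3.25 and 4.64 in the 4 sgNT groups. H2-Q7 was at 1.46 ± 1.1 in MC38 sgNT and between 0.0967 and 0.249 in the others, where the sgNT groups held 10 to 20 reads and the sgB2m groups 11 to 23.

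To compare genes with each other, levels were divided by exon length in kilobases (RPM per kilobase), from the basic annotation. Over all annotated exons H2-K1 has 2938 bases instead of 1655, while B2m has 860 by both. In MC38 sgNT H2-K1 stood at 217 by basic length and 122 by all exons, and H2-D1 at 249 and 203. Sums, shares and ratios given here therefore depend on the length used, which their SDs do not cover. The summed level of the 10 heavy chains was higher in sgB2m in 3 lines: 644 ± 15 against 532 ± 36 in MC38, 741 ± 30 against 590 ± 9 in AKR and 303 ± 6.7 against 250 ± 5.4 in Hepa1-6 (SD, n = 3). In LLC1 it was lower, at 247 ± 13 against 289 ± 1.8. In none of the 4 lines did the ranges of the groups overlap. The 2 classical genes made up 87.5% ± 0.3 of the sum in MC38 sgNT, 82.6% ± 0.31 in AKR, 81.7% ± 0.35 in LLC1 and 58% ± 0.87 in Hepa1-6, where H2-D1 alone carried it.

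H2-K1 made up 40.8% ± 0.35 of the sum in MC38 sgNT, 39.2% ± 0.35 in AKR, 11.8% ± 0.61 in LLC1 and 0% in Hepa1-6. With sgB2m the non-classical share was 12.4% ± 0.72 against 12.5% ± 0.3 in MC38 and 19% ± 0.12 against 17.4% ± 0.31 in AKR. It was 22.7% ± 0.71 against 18.3% ± 0.35 in LLC1 and 34% ± 0.6 against 42% ± 0.87 in Hepa1-6. The non-classical share was thus higher with sgB2m in AKR and LLC1 and lower in Hepa1-6, by more than the SDs, and within them in MC38.

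B2m transcripts per heavy chain transcript, as the ratio of levels per kilobase, were 1.99 ± 0.056 in MC38 sgNT and 0.471 ± 0.019 in sgB2m. The ratio was 2.41 ± 0.04 and 0.882 ± 0.05 in LLC1, and 0.803 ± 0.023 and 0.222 ± 0.0095 in AKR. For Hepa1-6 it was 1.08 ± 0.012 and 0.353 ± 0.022. By basic exon lengths, the ratio in LLC1 sgB2m was above that in AKR sgNT, from 0.825 to 0.917 against 0.777 to 0.821. These ranges lie close, and their order under other lengths was not tested.

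**Figure D4:**
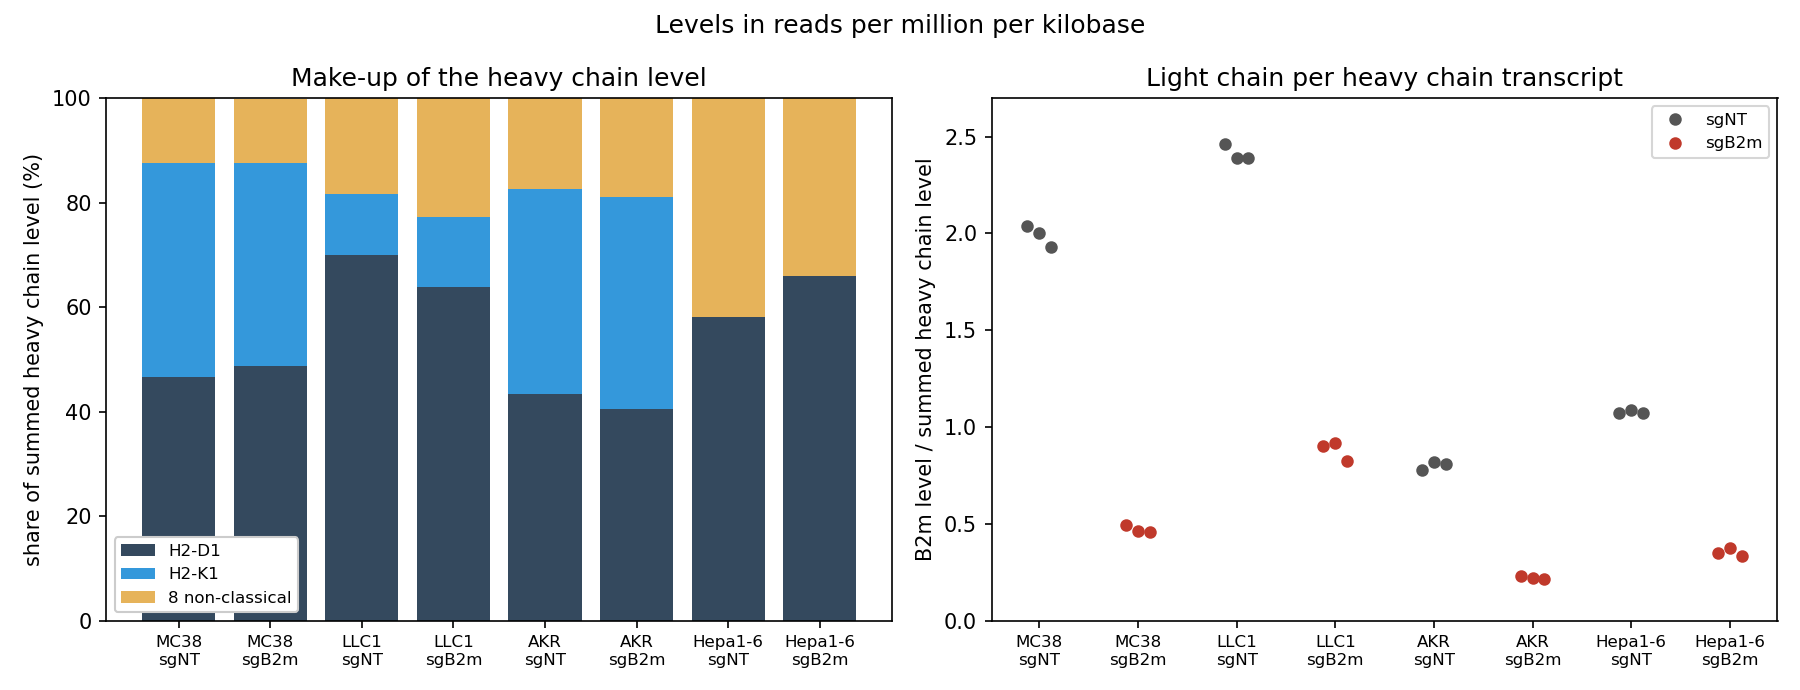
Left, mean share (%) of H2-D1, H2-K1 and the 8 non-classical genes in the summed heavy chain level of each group (3 libraries), from RPM per kilobase; right, ratio of the B2m level to that sum in each library. H2-K1 has no visible share in Hepa1-6, and the B2m ratio is lower in every sgB2m library than in the sgNT libraries of its line.

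Set side by side, the classical pair and the non-classical genes did not part in a shared way over the lines. In MC38 2 of 2 classical and 3 of 8 non-classical genes rose and 1 of 8 fell. In LLC1 1 of 2 classical genes fell, while 2 of 7 non-classical rose and 1 fell. In AKR 2 of 2 and 4 of 7 rose. In Hepa1-6 the 1 classical gene tested rose, and 1 of 7 non-classical rose and 1 fell. Of all genes tested, 15.9% were called higher and 15.8% lower in MC38, 20.7% and 21.8% in LLC1, 21% and 21.9% in AKR, and 18.6% and 19.2% for Hepa1-6, so that the non-classical counts in Hepa1-6 are near these shares. The median log2 fold change of the classical genes was 0.30, -0.23, 0.25 and 0.44 in MC38, LLC1, AKR and Hepa1-6. For the non-classical genes it was 0.38, 0.15, 0.33 and 0.01, and for all genes tested -0.00, 0.01, 0.01 and -0.01. With 1 or 2 classical genes per line, no test of the 2 classes was made.

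Over all heavy chains tested, the median log2 fold change was 0.32 (MC38), -0.07 (LLC1), 0.33 (AKR) and 0.13 (Hepa1-6). The median size of change was 0.51, 0.21, 0.33 and 0.30, against 0.23, 0.23, 0.26 and 0.21 for all genes tested.

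Family members share sequence, and it is not known how the authors' counting treated reads that fit 2 genes. Of the 100-base windows of each transcript, 0% were shared with another gene for H2-K1, H2-T24 and H2-M3, 4.64% for H2-D1 and 7.28% for H2-T23. It was 11.8% for H2-T10 and 14.2% for H2-T22, which share with each other, 13.9% for H2-Q4 and 16.4% for H2-Q7, whose main partner is H2-Q6. Of 50-base windows, all 10 genes shared some: 0.576% for H2-M3, 3.23% for H2-T24, 8.79% for H2-K1, 14.3% for H2-D1, 22.9% for H2-Q1, 29.8% for H2-T23, 34.9% for H2-Q7, 39.2% for H2-Q4, 42.9% for H2-T10 and 44.7% for H2-T22. Their values are uncertain to an extent that was not tested.

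Of 29 further H2 class I genes and pseudogenes, 9 to 11 were listed in a line and 2 to 5 tested. H2-K2, the pseudogene beside H2-K1, rose in LLC1 by 1.26 ± 0.25 (adjusted p = 0.00104), with 119 reads over the sgNT libraries and 298 over the sgB2m libraries, and in AKR by 0.68 ± 0.13 (adjusted p = 0.00128). H2-M5 fell by 1.43 ± 0.39 in AKR (adjusted p = 0.0114), with 73 reads over the sgNT libraries and 26 over the sgB2m libraries. Its sgB2m mean of 3.241 lay below the filter level of 3.5 and its sgNT mean of 4.673 above. The gene thus passed mainly through the group where it is high, and its call is no independent support. H2-M2 had 0 reads over the sgNT libraries and 40 over the sgB2m libraries of Hepa1-6. It passed the filter through its sgB2m libraries alone, so its call as higher follows from that selection and supports nothing further. In MC38 limma called 0 of the 3 tested, and 1 had an unadjusted p under 0.05.

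Nlrc5, the class I transactivator, rose in MC38 by 0.41 ± 0.075 (adjusted p = 0.00252), in AKR by 0.37 ± 0.067 (0.00113) and in Hepa1-6 by 1.13 ± 0.1 (4.82e-07), and fell by 0.31 ± 0.073 in LLC1 (0.00298). Its log2 values in Hepa1-6 were 9.56, 9.4 and 9.48 in sgB2m and 8.16, 8.38 and 8.51 in sgNT. In LLC1 they were 10.22, 9.99 and 10.04 against 10.52, 10.32 and 10.34. The groups did not overlap in either line. The guide effect on Nlrc5 differed between lines (adjusted p = 1.18e-08). H2-D1 and Nlrc5 had the same direction in each of the 4 lines. Some other heavy chains were called against the direction of Nlrc5: H2-T22 and H2-T10 rose in LLC1, H2-T23 fell in MC38 and H2-Q1 fell in Hepa1-6. The relation of Nlrc5 to the heavy chains was not tested.

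Of 24 regulators of class I genes, 11 rose and 2 fell in MC38, and 7 rose and 4 fell in LLC1. In AKR 7 rose and 8 fell, and 14 rose and 5 fell in Hepa1-6. All genes called made up 31.8% (MC38), 42.4% (LLC1), 42.9% (AKR) and 37.8% (Hepa1-6) of those tested. In MC38, Irf7, an interferon regulatory factor, rose by 1.14 ± 0.22 (adjusted p = 0.00322), while Irf3 fell by 0.33 ± 0.086 (0.0145) and Rfxank, a subunit of the RFX complex, by 0.33 ± 0.098 (0.0263). In LLC1, Stat2 rose by 1.25 ± 0.082 (2.57e-08) and Irf7 by 1.17 ± 0.32 (0.00808), and Nfya and Atf1 fell by 0.36 ± 0.041 and 0.35 ± 0.044. In AKR, Ifngr2, an interferon-gamma receptor chain, rose by 0.76 ± 0.07 (1.04e-05) and Nfyc, a subunit of the factor that binds CCAAT boxes, fell by 0.63 ± 0.061 (1.58e-05). In Hepa1-6, Ifngr2 rose by 0.60 ± 0.086 (4.63e-05), and Jak1 and Stat2 fell by 0.32 ± 0.038 and 0.31 ± 0.053.

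Of 16 genes of peptide supply and loading, 5 rose and 0 fell in MC38 by limma (2 lower at an unadjusted p under 0.05), and 4 rose and 6 fell in LLC1. In AKR 5 rose and 6 fell, and 6 rose and 6 fell in Hepa1-6. The 5 calls of 16 in MC38 are near the 31.8% of all genes, and the other lines' counts stand against 42.4% (LLC1), 42.9% (AKR) and 37.8% (Hepa1-6). In MC38, Erap1, the peptidase that trims peptides in the endoplasmic reticulum, rose by 0.73 ± 0.072 (adjusted p = 5.77e-05) and Tapbpl, a tapasin-related peptide editor, by 0.47 ± 0.096 (0.00475). Tapbpl fell by 0.71 ± 0.084 in AKR (6.17e-05), where Tap1, a subunit of the peptide transporter, rose by 0.61 ± 0.073 (6.48e-05) and Psmb9, an immunoproteasome subunit, by 0.92 ± 0.2 (0.00408). In Hepa1-6, Tap2 rose by 0.64 ± 0.18 (0.00999) and Psmb8 by 0.63 ± 0.12 (0.000486), and the chaperone genes Calr and Pdia3 fell by 0.46 ± 0.024 and 0.32 ± 0.022. The chaperone gene Hspa5 fell by 0.79 ± 0.025 in LLC1 (1.1e-11) and by 0.68 ± 0.035 in AKR (2.33e-07). Psmb8 was near its floor in LLC1, at 2.974 ± 5.15 normalised counts in sgB2m and 21.37 ± 0.858 in sgNT.

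A list of 34 other genes in and around the H2 complex held class II genes, class III genes such as Tnf, and genes that lie among the class I genes. Of those tested, 1 rose and 11 fell of 23 in MC38, 0 rose and 9 fell of 23 in LLC1 by limma (0 higher at an unadjusted p under 0.05), 4 rose and 3 fell of 22 in AKR and 7 rose and 4 fell of 24 in Hepa1-6. The shares of all genes were 15.9% higher and 15.8% lower in MC38, 20.7% and 21.8% in LLC1, 21% and 21.9% in AKR, and 18.6% and 19.2% for Hepa1-6. Their median log2 fold changes were -0.18, -0.17, -0.03 and 0.04, beside 0.32, -0.07, 0.33 and 0.13 for the heavy chains. Ier3, a stress-induced gene of the region, fell by 0.76 ± 0.081 in LLC1 (adjusted p = 3.12e-06) and rose by 2.24 ± 0.042 in Hepa1-6 (6.51e-15), and Ltb, which encodes lymphotoxin beta, rose by 2.13 ± 0.13 in Hepa1-6 (5.83e-09).

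The genes whose 4 log2 fold changes lay nearest to those of a heavy chain were sought among 8113 of the 8848 genes whose guide effect differed between lines, leaving out symbols of predicted genes and clones (Gm with digits, those ending in Rik, and clone accessions of letters and digits). The measure was the root mean square difference over the 4 lines. For H2-D1 these were Tnfrsf10b (0.073), which encodes a TRAIL receptor, Kansl2-ps (0.082), Zbtb26 (0.087), Nhlrc3 (0.089) and Zc3h12c (0.092). For H2-T23 they were Sema3b (0.089), Ctdp1 (0.091), Tead4 (0.1), Ccdc124 (0.11) and Rabac1 (0.11). H2-D1 took the place of H2-K1 here after the latter was found without a test in Hepa1-6. No other heavy chain was among the 5 nearest of either.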

How the data were processed

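Each line has 1 deposited table of log2 normalised counts. The tools named in the submitters' processing notes are FastQC 0.11.5, STAR and DESeq2, with the build mm10. Versions of STAR and DESeq2, the gene counter, its annotation and its use of strand are not given in the sources used here. Per the labels' protocols, libraries were strand-specific and paired-end. After removal of a pseudocount of 1, each library's values were whole multiples of 1 step (within 0.05 reads), which gave the reads quoted.

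Genes with log2 of at least 3.5 in at least 3 of 6 libraries were tested per line by limma 3.58.1 (R 4.3.3): a moderated two-sided test, with an intensity trend, no covariate, Benjamini-Hochberg adjustment over all genes tested, called under 0.05. Differences between lines came from 1 fit of 8 group means and, where the text says so, from fits without Hepa1-6 or without LLC1. The constant added before the logarithm draws fold changes of low genes toward 0. The test was checked on simulated data.

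The heavy chains and lists were chosen with earlier results of these data known, and alternatives were listed beforehand except those named as chosen after values were seen. The text names all heavy chains, B2m, Nlrc5, from each list the called genes with the 2 highest and 2 lowest changes per line (not all of them printed), and the 5 nearest genes. Exon lengths are GENCODE M21 basic.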

Additional observations from a re-analysis of the deposited data

Results flagged for a closer look

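The effect of sgB2m differed between the 4 lines for 4 heavy chains, by limma's F test of the difference itself over all genes tested in every line. For H2-D1 the adjusted p was 8.65e-11: it fell by 0.39 in LLC1 and was higher by 0.37, 0.17 and 0.44 in MC38, AKR and Hepa1-6 on the log2 scale. For H2-T23 it was 2.74e-08, with log2 fold changes of -0.74, -0.30, 0.51 and 0.01 in MC38, LLC1, AKR and Hepa1-6. For H2-T22 it was 0.00045, with 0.49, 0.21, 0.37 and -0.03. For H2-Q4 it was 0.00309, with 0.27, -0.23, 0.51 and 0.26. Such differences were common, at 69.8% of all genes, a larger share than among the heavy chains in that fit. Any other difference between the sgB2m and sgNT cells of a line cannot be told apart from the guide.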

How the results depend on the processing

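Of 591 values of single heavy chains under an alternative setting, 563 kept their direction and their side of the threshold or stayed uncalled, 25 lost the call, 3 gained one (H2-T24 in MC38 without an sgNT library, and the F tests of H2-Q1 without LLC1 and of H2-T24 without Hepa1-6) and 0 reversed a call. The count of heavy chains higher in MC38 was 5 and became 3 without an intensity trend, and that in LLC1 was 2 and became 1 with no filter on low values; the latter setting tests more genes, and the cause of the former was not tested. Leaving out 1 library at a time gave 3 to 6 higher and 1 to 1 lower in MC38, 1 to 2 higher and 1 to 2 lower in LLC1, 5 to 6 higher and 0 to 0 lower in AKR, 1 to 2 higher and 1 to 1 lower in Hepa1-6, and 4 to 4 genes that differed between lines. The uncalled change of H2-Q1 in LLC1 ran from -2.02 to 1.74. Same-numbered libraries did not deviate together (correlations of -0.028 to 0.051), so the numbers were not taken to pair them. With a replicate block the counts were 5 higher and 1 lower in MC38, 2 and 2 in LLC1, 5 and 0 in AKR, where H2-M3 was lost (adjusted p = 0.054), 2 and 1 in Hepa1-6, and 4 between lines. A sample correlated best with its own number in 7 of 12 pairs. At 3 libraries a group, changes in genes of few reads (H2-Q7, H2-Q1 in LLC1, H2-K1 in Hepa1-6) were not detectable.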
